A study of Mus musculus with 8 samples.

Results

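The clustered protocadherins were followed as the rows of a deposited gene count table whose symbols begin with Pcdha, with Pcdhb and a digit, or with Pcdhg. This rule, which uses symbols and no measured value, found 52 members among 14765 genes: 11 of the alpha cluster, 21 of the beta cluster and 20 of the gamma cluster. RNA came from PrL tissue (PrL being read as prelimbic cortex, a medial prefrontal area) of C57 mice, and poly(A) RNA was sequenced in bulk. There were 4 SNI and 4 Sham libraries. SNI is the usual short form of spared nerve injury, an operation that leaves mice with long-lasting neuropathic pain, and Sham is its control. The labels give no age, sex, time after surgery or other treatment. Nor do they tie libraries to separate mice, so a p-value here reflects how much the 8 libraries scatter, a scatter that may be partly technical.

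Clustered protocadherins are homophilic cell adhesion proteins of neurons. Each alpha or gamma transcript joins 1 variable exon, which encodes the extracellular and transmembrane parts, to constant exons that encode a cytoplasmic end common to its cluster, whereas beta members have no constant exons. A neuron uses a few of the many alternate promoters, chosen in large part at random through CTCF, cohesin and DNA methylation, and the combination serves as a surface identity by which its branches recognise their own. The C-type members at the ends of the alpha and gamma clusters (Pcdhac1, Pcdhac2, Pcdhgc3, Pcdhgc4 and Pcdhgc5) are controlled differently and are not chosen at random in the same way.

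In GENCODE M21 (GRCm38) all members lie on the plus strand of chromosome 18. The alpha cluster runs from 36930184 to 37187661, the beta cluster from 37264938 to 37524479 and the gamma cluster from 37661793 to 37841873. Every alpha gene model shares 2860 exonic bases with all other alpha models, and every gamma model shares 2116 with all other gamma models. No exonic base is common to all beta models, and 18 of 22 consist of a single exon, but Pcdhb21 and Pcdhb22 overlap by 455 exonic bases, so reads there could belong to either. Reads from the constant exons could therefore belong to any member of the cluster, and no source used here gives the way they were divided, so the value of a single alpha or gamma member is uncertain and the sum over a cluster is less so. Beta members are close paralogs. The symbol Pcdha11 covers 2 gene models. Antisense genes lie within the spans, and no source used here tells whether the counting used strand. The plus-strand protein-coding models Gm42416, Gm37013 and Gm37388 also overlap the spans of all clusters. How reads there were assigned is not known either. Pcdha4, Pcdha8, Pcdhb1, Pcdhga10 and Pcdhgb8 were not analysed here.

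Libraries held 14735602 to 19602487 counts, of which 4743 to 6996 fell on the 52 members. Levels are given in CPM, the usual depth-scaled count, with library sizes adjusted by the trimmed mean of M-values (TMM). All 52 members passed the filter on low counts, which kept 13911 genes. For single genes, rose, fell and changed mean past the adjusted p of 0.05 described below. Over all genes tested 2.15% rose and 2.87% fell. Markers of excitatory cortical neurons were measured for 8 of 8 listed genes, of which Nrn1 and Emx1 fell, with summed levels of 3669 to 5140 CPM in SNI libraries and 4926 to 5650 CPM in Sham libraries. Those of choroid plexus and ependyma summed to 11.7 to 15.7 CPM in SNI and 5.50 to 8.17 CPM in Sham over 5 measured genes, of which Ttr and Clic6 rose. Of 7 microglial markers P2ry12 and Tmem119 rose, and of 7 upper-layer markers Lamp5, Cux2 and Mdga1 fell. Striatal markers summed to 373, 888, 448 and 875 CPM in SNI replicates 1 to 4 and to 252 to 495 CPM in Sham, with overlap. Their median log2 fold change was 0.98, although 0 of 9 passed the threshold, so a striatal difference was not excluded. Of 7 deep-layer markers Hs3st4 and Ntsr1 rose, with sums of 285 to 330 CPM in SNI and 194 to 287 CPM in Sham.

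Levels differed widely between members. Per kilobase of annotated exon, the mean level over the 8 libraries lay between 0.153 CPM per kb (Pcdha1) and 8.36 CPM per kb (Pcdhgc5). The median was 0.378 CPM per kb over 10 alpha members, 1.26 over 21 beta members and 0.933 over 20 gamma members. The lengths include the constant exons of alpha and gamma members, which beta members lack. Ranks between clusters, here and below, therefore depend on this choice of length and on how constant-exon reads were divided. Levels over the variable exons alone were not measured. Pcdhgc5 stood first in both groups, with 7.05 ± 1.54 CPM per kb in SNI and 9.66 ± 1.44 CPM per kb in Sham (SD, n = 4 libraries each). Next came 3 beta members whose levels did not differ from each other beyond their spread: Pcdhb9 with 4.85 ± 0.742 CPM per kb in SNI and 4.76 ± 0.794 in Sham, Pcdhb17 with 3.95 ± 0.578 and 4.43 ± 0.332, and Pcdhb20 with 4.10 ± 0.319 and 4.10 ± 0.179 (SD, n = 4 libraries each, SNI and then Sham). The C-type members Pcdhac2 and Pcdhgc3 followed, with means of 3.49 and 3.35 CPM per kb. The other C-type members did not stand high: Pcdhgc4 had 1.46 and Pcdhac1 0.346 CPM per kb.

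Within a cluster, position on the chromosome went with level to different degrees. Spearman's rho between order and level per kilobase was 0.74 over 8 alpha members without the C-type, 0.14 over 21 beta members and 0.36 over 17 gamma A and B members. These are descriptions over members that share the libraries and, for alpha and gamma, the constant exons. By median level per kilobase the alpha cluster was the lowest, although in CPM, as plotted, Pcdhb2 lay below all alpha members but Pcdha1.

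**Figure D1:**
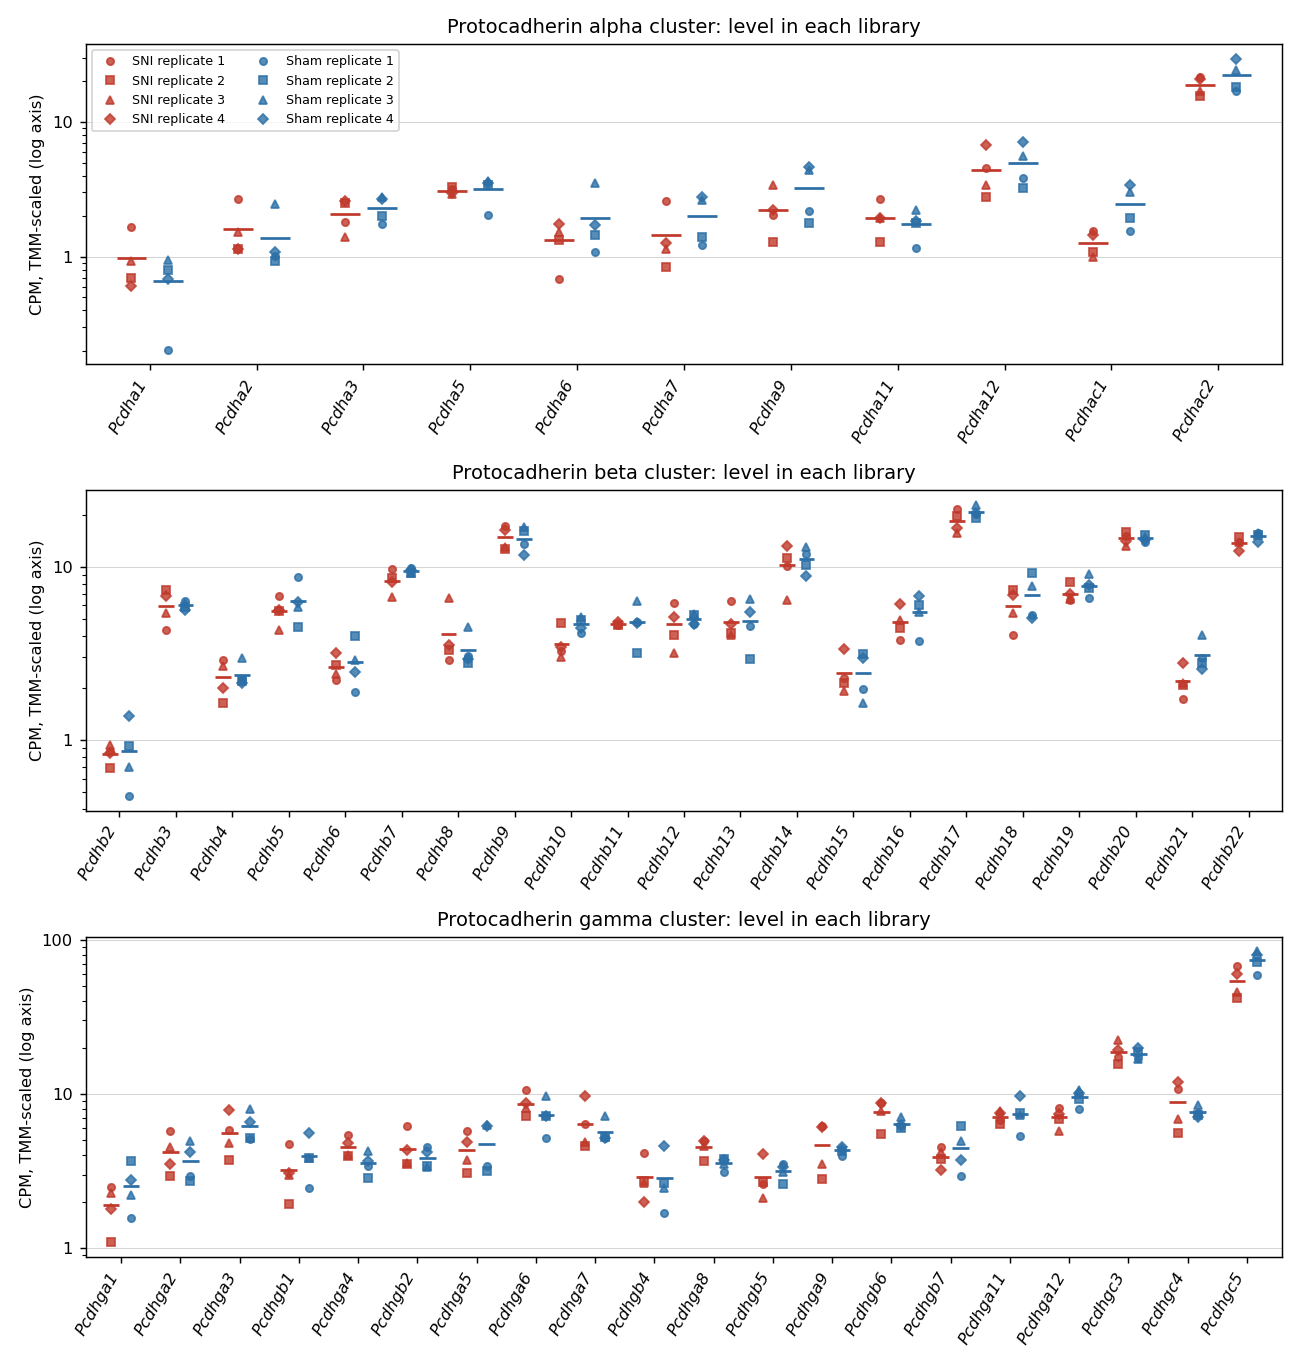
Level of each of the 52 members in each library, in TMM-scaled CPM on a log axis, in chromosomal order within the alpha, beta and gamma clusters; red symbols are SNI libraries, blue symbols Sham libraries, and short lines the group means. Pcdhgc5 is highest, and Pcdhac1 is the member in which all 4 SNI values lie below all 4 Sham values.

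No single clustered protocadherin changed at the threshold used here, a Benjamini-Hochberg adjusted p of 0.05 over all genes in edgeR's quasi-likelihood test. Of 52 members 0 rose and 0 fell, beside 5.02% of all 13911 genes tested. Over all genes 299 rose (2.15%) and 399 fell (2.87%) in SNI, or 446 and 276 when libraries were scaled by their totals alone. At an unadjusted p under 0.05 there were 3 members, all lower in SNI, beside 21.1% of all genes. DESeq2 called 1 member, Pcdhgc5, and limma voom called 0. The estimated differences leaned to lower values in SNI: 36 members were below 0 and 16 above, with a median log2 fold change of -0.10, beside 6652 below and 7259 above with a median of 0.01 over all genes tested. By cluster, 8 of 11 alpha, 19 of 21 beta and 9 of 20 gamma members were below 0, with medians of -0.19, -0.10 and 0.02. The size of this lean depended on the setting. Members below 0 numbered 29 with limma voom, 30 with library totals alone and 28 without SNI replicates 2 and 3, but 41 without SNI replicate 1. With library totals alone the median over all genes moved too, to 0.06, beside -0.05 over members.

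A missed threshold does not show that levels were alike. The 95% interval of a member's log2 fold change (not adjusted for the number of genes) reached a median of 0.48 to either side, from 0.23 for the best measured to 0.97 for the scarcest. It lay within 1 log2 unit of 0 for 44 of 52 members and within 0.5 for 10. The narrowest was that of Pcdhb20, whose log2 fold change was -0.00 with an interval of -0.23 to 0.23.

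**Figure D2:**
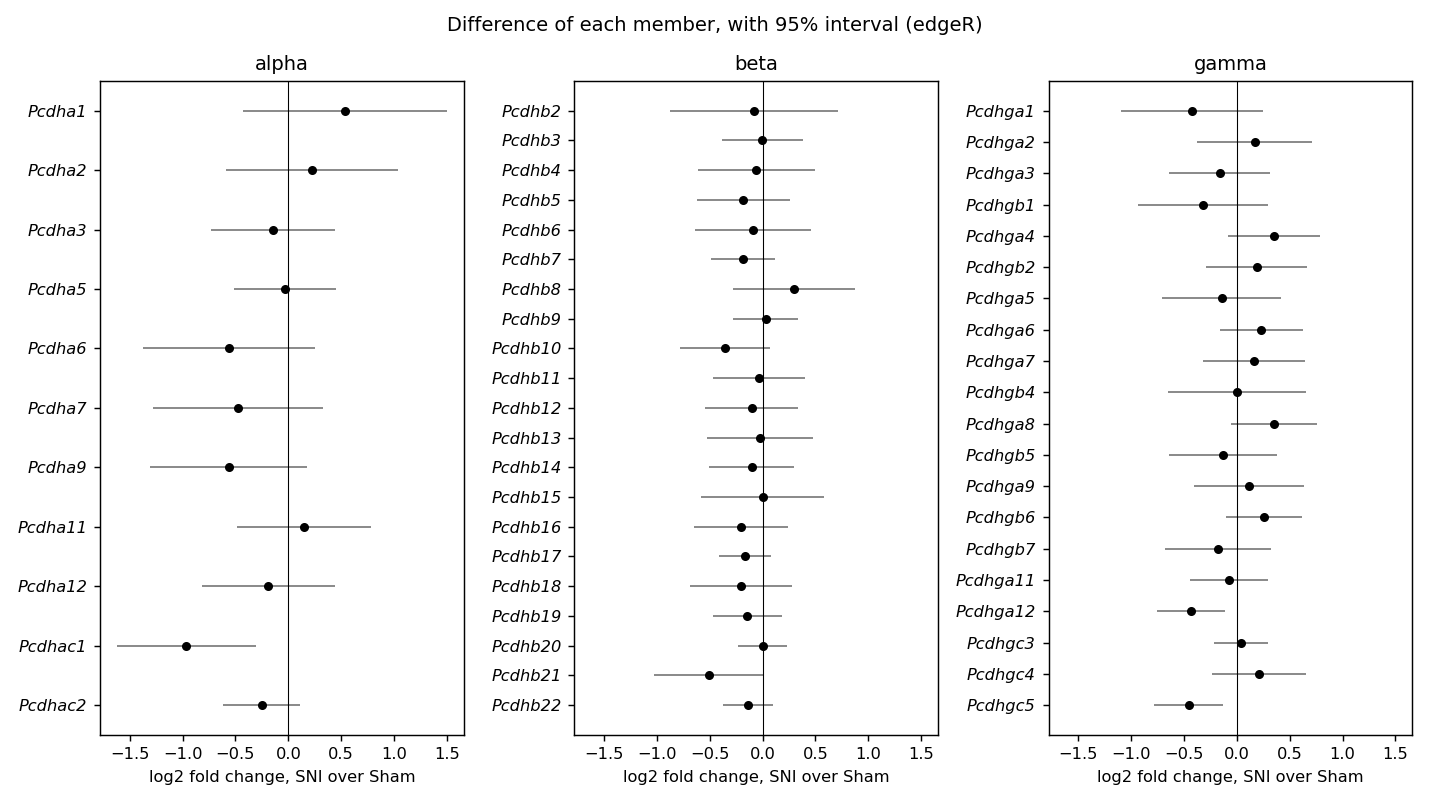
Log2 fold change of each member, SNI over Sham, with its unadjusted 95% interval from edgeR, in chromosomal order from top to bottom. The intervals of Pcdhac1, Pcdhga12 and Pcdhgc5 lie below 0, and the intervals of the other 49 include 0.

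Pcdhgc5, a C-type gamma protocadherin of the mature forebrain that binds GABA-A receptors, had the lowest p of the gamma cluster. Its level was 67.1, 42.2, 45.9 and 60.0 CPM in SNI replicates 1 to 4 and 59.4, 71.3, 84.4 and 79.7 CPM in Sham replicates 1 to 4. SNI replicates 2 and 3 were low, and SNI replicates 1 and 4 lay above the lowest Sham library, so the groups overlapped. The means were 53.8 ± 11.7 CPM in SNI and 73.7 ± 10.98 CPM in Sham (SD, n = 4 libraries each). The log2 fold change was -0.46 ± 0.151 (SE; 95% interval -0.79 to -0.13), with an edgeR adjusted p of 0.109. The adjusted p was 0.0318 with DESeq2 and 0.03 without SNI replicate 1, the alternatives under which the threshold was passed. Without SNI replicates 2 and 3 (a pair chosen with earlier results known) the log2 fold change was -0.21. In SNI replicates 2 and 3 the summed excitatory neuron markers were 3669 and 4645 CPM, against 5140 and 4535 in SNI replicates 1 and 4. The 7 upper-layer markers summed to 504 to 592 CPM in SNI and 643 to 786 CPM in Sham, without overlap. The part of these markers in the level of Pcdhgc5 was not tested. In bulk tissue, fewer cells of a type and less RNA per cell cannot be told apart.

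Pcdhac1, the scarcer C-type member of the alpha cluster, was the only one of the 52 whose groups did not overlap, beside 12.7% of all genes tested (5.64% with SNI above and 7.02% with SNI below). It had 1.55, 1.09, 0.998 and 1.45 CPM in SNI replicates 1 to 4 and 1.56, 1.93, 3.03 and 3.38 CPM in Sham replicates 1 to 4. These levels rested on 15 to 25 reads per SNI library and 23 to 59 reads per Sham library, and SNI replicate 1 and Sham replicate 1 were nearly equal. The log2 fold change was -0.97 ± 0.310 (SE), with an edgeR adjusted p of 0.085. It passed under none of the 18 alternatives, where the adjusted p ran from 0.0566 to 0.402.

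The other C-type members did not separate. Pcdhac2, which serotonergic axons need to spread evenly through their targets, had 21.7, 15.6, 16.97 and 20.8 CPM in SNI replicates 1 to 4 and 17.1, 18.2, 24.4 and 29.6 CPM in Sham replicates 1 to 4. Its log2 fold change was -0.25 (95% interval -0.62 to 0.11), and -0.09 without Sham replicate 4. Pcdhgc3, which acts in dendrite growth, had 17.5, 15.7, 22.5 and 19.2 CPM in SNI and 17.1, 18.6, 16.9 and 19.96 CPM in Sham, a log2 fold change of 0.04 (-0.21 to 0.30), which was -0.06 without SNI replicate 3. The highest library was an SNI one and the lowest was too. Pcdhgc4, which neuronal survival depends on, had 10.8, 5.60, 6.86 and 11.9 CPM in SNI and 7.53, 7.30, 8.47 and 7.05 CPM in Sham, a log2 fold change of 0.21 (-0.24 to 0.66). Without SNI replicate 1 it was 0.09, without SNI replicate 4 it was 0.03, and without SNI replicate 2 it was 0.38. SNI replicates 1 and 4 lay above all Sham libraries and SNI replicates 2 and 3 below them. The edgeR adjusted p of these 3 genes was 0.418, 0.881 and 0.603.

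Among alternate members, Pcdhga12 had an unadjusted p under 0.05 and is named here after its values were seen. It had 8.12, 6.89, 5.79 and 7.41 CPM in SNI replicates 1 to 4 and 8.01, 9.30, 10.6 and 10.2 CPM in Sham replicates 1 to 4, with an overlap of SNI replicate 1 and Sham replicate 1. The log2 fold change was -0.43 ± 0.151 (SE, edgeR adjusted p = 0.114). The scarcest member of each cluster showed how little depth remained there. Pcdha1 had 27, 14, 14 and 10 counts in SNI and 3, 12, 15 and 12 counts in Sham. Pcdhb2 had 14 counts in each of the 4 SNI libraries and 7, 14, 11 and 24 counts in Sham. Pcdhga1 had 40, 22, 34 and 30 counts in SNI and 23, 55, 35 and 48 counts in Sham. In these 3 the groups overlapped, and the 95% intervals of the log2 fold changes were -0.43 to 1.505, -0.88 to 0.71 and -1.10 to 0.24. The most abundant beta member by CPM, Pcdhb17, had 21.6, 19.5, 15.6 and 16.8 CPM in SNI and 20.2, 19.1, 22.7 and 20.5 CPM in Sham, also with overlap.

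Summed over the measured members of a cluster, no cluster separated the groups. These sums depend less on the division of reads than single members do, but reads given to the members not analysed here are outside them, and they carry no test. The alpha sum was 45.2, 31.9, 36.1 and 43.5 CPM in SNI replicates 1 to 4 and 33.2, 36.9, 55.7 and 59.0 CPM in Sham replicates 1 to 4. The beta sum was 146, 146, 127 and 147 CPM in SNI and 146, 150, 167 and 144 CPM in Sham. The gamma sum was 194, 130, 152 and 184 CPM in SNI and 152, 177, 203 and 198 CPM in Sham. The log2 ratios of the group means, SNI over Sham, were -0.24 for alpha, -0.10 for beta and -0.14 for gamma. Each was smaller than or close to the pooled SD of the log2 sums within groups, which was 0.34, 0.10 and 0.23. The beta sum varied least, and the alpha and gamma sums varied together: SNI replicate 2 and Sham replicate 1 were the lowest of their groups in both.

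**Figure D3:**
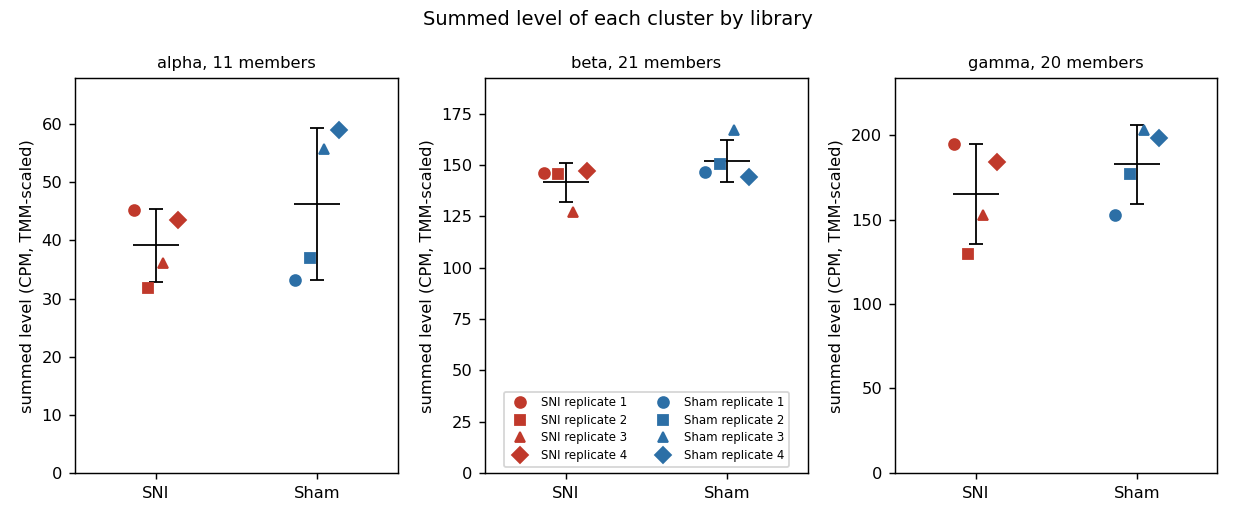
Summed level of the 11 alpha, 21 beta and 20 gamma members in each library, in TMM-scaled CPM; red symbols are SNI libraries, blue symbols Sham libraries, black lines the mean and SD (n = 4 each). The groups overlap in each cluster.

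In the alpha and gamma clusters the same libraries were often high or low in many members. The part of the shared constant exons in this was not tested. SNI replicate 2 held the lowest SNI value of 16 of the 20 gamma members and SNI replicate 1 the highest of 13. Sham replicates 3 and 4 held the highest pair of Sham values in 10 of 11 alpha members and 10 of 20 gamma members, but in 3 of 21 beta members. The lowest SNI value of the beta members lay mostly in SNI replicates 1 and 3: replicates 1 to 4 held it in 8, 3, 9 and 1 members. The median coefficient of variation between libraries of a group was 34.7% in SNI and 35.2% in Sham for alpha members, 19.8% and 16.7% for beta members, and 27.9% and 17.2% for gamma members. If the values are plain read counts, counting error alone would give medians of 17.5% and 16.5%, 11.1% and 10.7%, and 11.4% and 11.7% in the same order. The median spread between libraries thus exceeded counting error, so computed, in each cluster and group.

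In the gamma cluster the shares of 4 of 20 members separated the groups, while its sum did not. Over all clusters 5 of 52 shares separated, 3 with SNI above and 2 with SNI below. In levels, a different measure, 12.7% of all genes tested separated, and no such background was made for shares. Pcdhgc5 made up 34.5, 32.5, 30.1 and 32.6% of gamma counts in SNI replicates 1 to 4 and 38.9, 40.4, 41.6 and 40.2% in Sham replicates 1 to 4. Every SNI share lay below every Sham share, with means of 32.4 ± 1.81% in SNI and 40.3 ± 1.08% in Sham (SD, n = 4 libraries each). Shares do not depend on how libraries are scaled, and leaving out any 1 library moved the difference of -7.84 percentage points to between -8.54 and -7.07. Without SNI replicates 2 and 3 it was -6.72. The shares of Pcdhgb6, Pcdhga4 and Pcdhga8 lay higher in all SNI than in all Sham libraries: 4.65 ± 0.382% in SNI and 3.54 ± 0.401% in Sham, 2.77 ± 0.203% and 1.95 ± 0.274%, and 2.77 ± 0.198% and 1.95 ± 0.177% (SD, n = 4 libraries each, SNI and then Sham). In levels, none of these 3 passed the edgeR test (log2 fold changes 0.26, 0.35 and 0.35). In the alpha cluster the share of Pcdhac1 was lower in all SNI libraries, 3.23 ± 0.318% in SNI and 5.27 ± 0.435% in Sham, while Pcdhac2 made up 47.97 ± 0.774% in SNI and 48.7 ± 3.41% in Sham. In the beta cluster 0 of 21 shares separated the groups. Shares within a cluster are tied to each other, since a fall in the share of Pcdhgc5 raises the others.

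Set against the alternate gamma members, C-type counts gave a lower ratio in SNI than in Sham. The counts of the 5 C-type members were 1.20, 1.21, 1.21 and 1.22 times those of the 17 gamma A and B members in SNI replicates 1 to 4 and 1.4995, 1.48, 1.47 and 1.52 times in Sham replicates 1 to 4. This spread, 0.796% in SNI and 1.67% in Sham as a coefficient of variation, is below the 3.22 to 4.06% that counting error alone gives, so it understates the error of the ratio. The counts behind it were 1400 to 2435 for the C-type members and 1009 to 1599 for the gamma A and B members. Without Pcdhgc5 the ratio overlapped between groups, at 0.521, 0.570, 0.613 and 0.576 in SNI and 0.632, 0.579, 0.565 and 0.655 in Sham. Pcdhgc5 alone over the gamma A and B members was 0.638 ± 0.0344 in SNI and 0.885 ± 0.0190 in Sham (SD, n = 4 libraries each), again without overlap. The sum of the gamma A and B members itself was 83.9 ± 14.8 CPM in SNI and 83.2 ± 11.6 CPM in Sham. Set against the beta cluster, Pcdhgc5 gave 0.379 ± 0.0720 in SNI and 0.485 ± 0.0621 in Sham, with overlap. These ratios were chosen after the counts had been seen and carry no p, and how the counting divided constant-exon reads between Pcdhgc5 and the other gamma members was not tested.

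**Figure D4:**
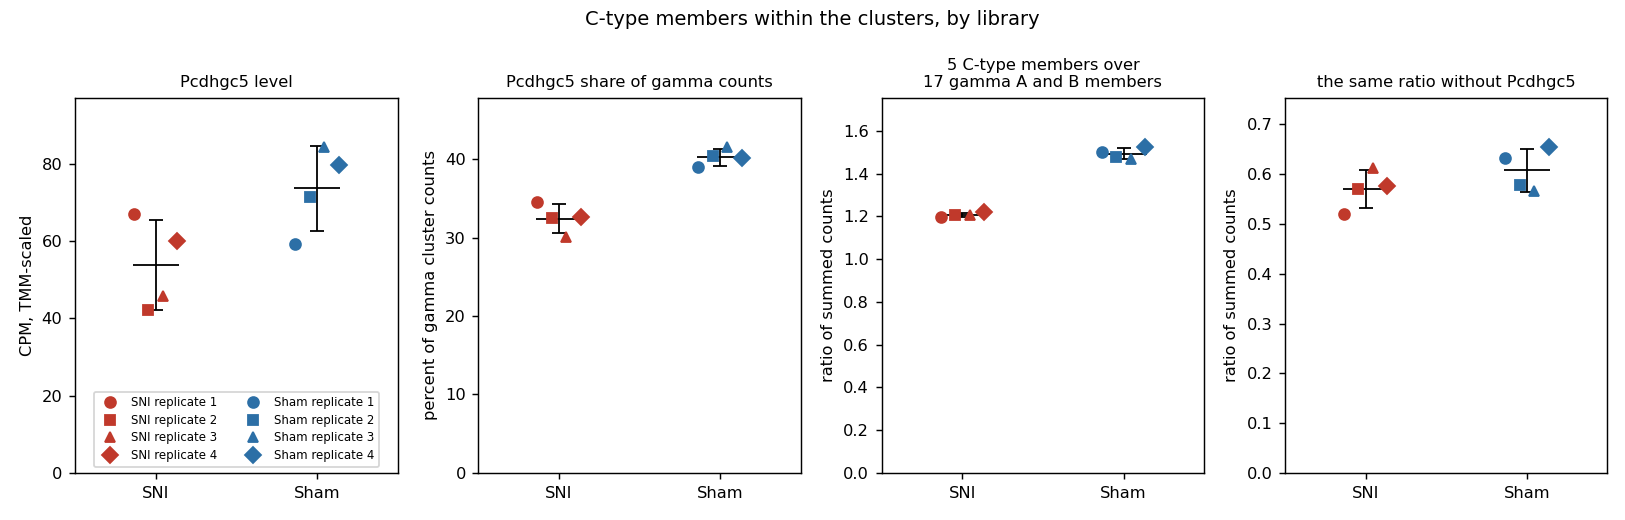
From left to right: level of Pcdhgc5 (TMM-scaled CPM), its share of gamma cluster counts (percent), the ratio of C-type to gamma A and B counts, and that ratio without Pcdhgc5, in each SNI (red) and Sham (blue) library, with mean and SD (n = 4 each). The share and the first ratio do not overlap between groups, while the level and the second ratio do.

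Factors that open, fold or silence the clusters did not pass the test with all 8 libraries. Of 12 genes for CTCF, cohesin and its partners 0 passed, beside 5.02% of all genes tested. The median log2 fold change was 0.11, and only Mau2 and Wiz were below 0 (-0.12 and -0.20). The smallest p was that of Stag1, a cohesin subunit, with 38.3, 44.7, 43.6 and 38.1 CPM in SNI replicates 1 to 4 and 34.3, 37.5, 33.6 and 33.2 CPM in Sham replicates 1 to 4 (log2 fold change 0.25, edgeR adjusted p = 0.114). In Stag1 and in Smc3 every SNI value lay above every Sham value, beside 5.64% of all genes tested. The log2 fold changes of Smc3 and Stag2 were 0.25 and 0.26 (edgeR adjusted p = 0.119 and 0.126). Ctcf had 73.2 ± 7.27 CPM in SNI and 72.7 ± 3.96 CPM in Sham (SD, n = 4 libraries each). Of 16 DNA methylation and heterochromatin genes 0 changed, with a median of 0.00. The smallest p was that of Uhrf1, which brings the maintenance methyltransferase to DNA, with 1.73, 2.33, 2.53 and 3.07 CPM in SNI replicates 1 to 4 and 1.22, 0.465, 0.821 and 2.47 CPM in Sham replicates 1 to 4. Sham replicate 4 lay within the SNI values. The log2 fold change of Uhrf1 was 0.93 (edgeR adjusted p = 0.186), and without Sham replicate 4 it was 1.52 and passed (adjusted p = 0.0329). Smchd1, which keeps the clusters silent on methylated alleles, had a log2 fold change of -0.04. The median over all genes tested was 0.01.

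Of 28 genes listed as acting with clustered protocadherins, 3 fell and 0 rose, with a median log2 fold change of -0.06. The list holds kinases, actin regulators and proteases, and also Axin1, Ctnnb1, Nlgn1, Nlgn2, Pdcd10 and Tanc2. Over all genes tested 2.87% fell and 2.15% rose. Prkca, a protein kinase C, had 144, 153, 125 and 142 CPM in SNI replicates 1 to 4 and 163, 207, 198 and 196 CPM in Sham replicates 1 to 4, without overlap. Its log2 fold change was -0.44 ± 0.0909 (SE, edgeR adjusted p = 0.0133). Fyn, a Src-family kinase bound by alpha protocadherins, had 127, 122, 116 and 138 CPM in SNI replicates 1 to 4 and 154, 167, 153 and 156 CPM in Sham replicates 1 to 4. Wasf1, a subunit of the actin-regulating WAVE complex that protocadherins recruit, had 226, 186, 190.4 and 213 CPM in SNI replicates 1 to 4 and 267, 249.99, 268 and 245 CPM in Sham replicates 1 to 4. The groups did not overlap in Fyn or in Wasf1. Their log2 fold changes were -0.32 and -0.34, with edgeR adjusted p of 0.0263 and 0.0304. The focal adhesion kinases Ptk2 and Ptk2b, which the constant domains inhibit, gave log2 fold changes of -0.09 and 0.08, neither past the threshold. Prkca lost its call when Sham replicate 3 was left out (edgeR adjusted p = 0.0544). The calls of Fyn and Wasf1 ended without Sham replicates 1, 2 or 3, without SNI replicate 3 and without SNI replicates 2 and 3, and that of Wasf1 also without SNI replicates 2 and 4. The 8 pan-neuronal markers, of which Rbfox3 fell, summed to 7051 to 7955 CPM in SNI and 8137 to 8516 CPM in Sham, without overlap, and their part in these falls was not tested.

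Among related adhesion genes outside the clusters, 1 of 12 non-clustered protocadherins fell, beside 2.87% of all genes tested. Pcdh20 had 12.9, 19.0, 10.1 and 13.1 CPM in SNI replicates 1 to 4 and 20.7, 29.8, 22.7 and 24.1 CPM in Sham replicates 1 to 4, without overlap. Its log2 fold change was -0.81 ± 0.170 (SE, edgeR adjusted p = 0.0163), and it passed under each of the 18 alternatives. The median of these 12 genes was -0.12. Of 15 classical cadherins and catenins 2 fell, with a median of -0.16. Cdh10 had 52.7, 49.1, 41.7 and 46.2 CPM in SNI replicates 1 to 4 and 68.9, 61.9, 74.3 and 69.3 CPM in Sham replicates 1 to 4. Cdh8 had 35.8, 38.9, 28.6 and 36.4 CPM in SNI replicates 1 to 4 and 39.6, 44.3, 55.8 and 50.6 CPM in Sham replicates 1 to 4. Neither gene's groups overlapped, and the log2 fold changes were -0.53 and -0.44. The edgeR adjusted p was 0.00405 and 0.0376. Cdh10 passed under each of the 18 alternatives, while the call of Cdh8 ended under 10 of them, among them leaving out Sham replicates 2, 3 or 4 or SNI replicates 1, 3 or 4. The upper-layer and pan-neuronal marker sums, given above, were also lower in all SNI than in all Sham libraries, and their part in the falls of Pcdh20, Cdh10 and Cdh8 was not tested.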

How the data were processed

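Bulk poly(A) RNA of 4 SNI and 4 Sham libraries was used. The deposited values are whole numbers per gene symbol, taken here as counts of reads. Per the submitters' processing notes, the authors used fastp, HISAT2 and StringTie on GRCm38; their versions, the annotation, the strand setting and how StringTie output became counts were not given in the sources used here. In every library the lowest count of any gene is 1. Positions and exons come from GENCODE M21.

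Genes were filtered with filterByExpr, scaled by TMM and tested with edgeR 4.0.16 (R 4.3.3) by the robust quasi-likelihood F-test, two-sided and with group alone in the model, and p-values were adjusted by Benjamini-Hochberg over all 13911 genes at 0.05. The SE is the log2 fold change divided by the square root of F. Cluster sums, shares and ratios carry no test. Alternatives were other scalings, other filters, DESeq2 1.42.0, limma voom (3.58.1), a replicate block and each library left out. Leaving out 2 SNI libraries was added after seeing the data. No library was a copy of another: within a group, chi-square divided by its degrees of freedom ran from 7.39 to 28.4 over pairs of libraries.

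The members, lists and tests were chosen with earlier results of these data known. Values per library were given for members past the threshold, members whose groups did not overlap, C-type members and the highest and lowest member of each cluster; of each pathway list, those past the threshold or, failing that, the member of smallest p. Marker lists named above are given by counts, most with summed levels. Lists for GABAergic and serotonergic neurons, astrocytes, oligodendrocytes, their precursors and endothelial cells were also made. Among these Ddc (serotonergic) rose and Gpr17 (precursors) fell. Of 5 serotonergic genes Slc6a4 and Fev had no value, and 2 were tested. Sums over the 3 measured serotonergic genes were 40.1 to 48.1 CPM in SNI and 34.6 to 39.6 CPM in Sham. Oligodendrocyte sums were 4155 to 7329 and 2962 to 6523 CPM, with overlap, and the sums of the rest also overlapped.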

Additional observations from a re-analysis of the deposited data

Results flagged for a closer look

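A library was looked at again where it lay far from the 3 others of its group, by Dixon's test of the gap at the 95% level. Chance alone picks out about 1 in 20 groups, and 6 of 110 groups met the test. Sham replicate 3 was high in 4 members. It had 7.20 CPM of Pcdhga7 (others 5.16 to 5.25), 2.97 CPM of Pcdhb4 (2.12 to 2.24), 4.49 CPM of Pcdhb8 (2.79 to 3.05) and 2.46 CPM of Pcdha2 (0.930 to 1.09). Sham replicate 1 was low in Pcdha5, with 2.04 CPM (others 3.39 to 3.66). SNI replicate 3 had the lowest summed beta level, 127 CPM (others 146 to 147).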

How the results depend on the processing

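The count of 698 called genes became 1165 with DESeq2, 258 to 858 with 1 library left out, 178 without SNI replicates 2 and 3 and 438 without SNI replicates 2 and 4. Leaving out Sham replicates 1, 2 or 3 or SNI replicate 3 moved it by over 1.5 times (447, 430, 258 and 297). Members called lower numbered 1 with DESeq2 and 0 to 1 with 1 library left out, in both cases Pcdhgc5; members called higher numbered 0 under each of the 18 alternatives. Of 934 member values under alternatives, 932 kept their side of the threshold, 2 passed it and 0 changed sign with a call. The sign of the log2 fold change was the same under each alternative for 24 of 52 members, 18 lower and 6 higher. The median over members stayed below 0, from -0.15 without Sham replicate 1 to -0.01 with limma voom. With 1 library left out the log2 ratio of the sums ran from -0.37 to -0.10 for alpha, -0.13 to -0.05 for beta and -0.23 to -0.05 for gamma, and without SNI replicates 2 and 3 that of gamma was 0.05. Replicate numbers are shared between groups, but same-numbered libraries did not deviate together (correlations -0.148 to -0.0056), so the numbers were not taken to pair them. With a replicate block 518 genes and 0 members were called, Pcdhgc5 had an adjusted p of 0.17, and among the listed genes Fyn, Wasf1 and Cdh8 were no longer called (adjusted p = 0.05225, 0.05225 and 0.07525). Counts of 3 to 1389 reads per member and library limit the precision, most for the alternate alpha members.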
